A study of Mus musculus with 6 samples.

Results

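The Dlx genes encode homeodomain transcription factors related to Drosophila Distal-less. In the mouse, Dlx1 to Dlx6 lie as 3 linked pairs, Dlx1 with Dlx2, Dlx5 with Dlx6 and Dlx3 with Dlx4. H3K27me3 calls around these 6 genes were examined in male germ cells of control and Ezh2 conditional mutant mice. The members were chosen by position, as every MACS2 peak and every hiddenDomains bin of the 4 libraries that overlaps 1 of 3 intervals of the mm9 build. Dlx1 and Dlx2 were represented by chromosome 2 from 71355000 to 71395000. Dlx5 and Dlx6 were represented by chromosome 6 from 6800000 to 6845000, and Dlx3 and Dlx4 by chromosome 11 from 94970000 to 95020000. Together the intervals held 30 of 138591 deposited peaks and 1743 of 1015756 deposited bins. Each library contributed 7 or 8 of the peaks and between 423 and 449 of the bins. No mm9 annotation was used here, so it was not checked that each interval holds the pair it is named for, and values are not split between the genes of a pair.

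Trimethylation of lysine 27 of histone H3 (H3K27me3) is the mark of Polycomb repressive complex 2 (PRC2), in which EZH2 or its paralog EZH1 is the catalytic subunit. Genes of developmental transcription factors that are silent in a tissue are classic carriers of broad H3K27me3 domains. Dlx1 and Dlx2 act in the forebrain, where they drive the production and migration of inhibitory interneurons, and in the branchial arches. Dlx5 and Dlx6 pattern the lower jaw, the limb and the skeleton, Dlx3 acts in placenta, skin, hair and teeth, and Dlx4 is the most divergent of the set.

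All groups came from mice aged 6 weeks on a mixed background, and all carried the MvhCre transgene, which acts in developing germ cells. Controls were MvhCre;Ezh2fl/+ and so retained a wild-type Ezh2 allele next to a floxed allele (2 libraries), and mutants were MvhCre;Ezh2fl/fl (2 libraries). No change to Ezh1 is given in the labels for either genotype. The chromatin was precipitated with an H3K27me3 antibody, and the cells were spermatogenic cells of mixed stage, put at 90% purity by microscopy, per the labels. In such a mixture, calls from germ cells of different stages and from the remaining cells cannot be told apart. Cell identity and the loss of Ezh2 were not checked from these files, which hold positions of calls and no expression. Whether the libraries come from different animals is not stated in the labels, so p-values measure only the spread between these libraries.

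Read depth was not given for any library. Genome-wide peak coverage was 67.3 Mb in control 1, 69.8 Mb in control 2, 82.0 Mb in mutant 1 and 64.4 Mb in mutant 2. Bin coverage, in the same order, was 53.4, 54.3, 50.9 and 44.6 Mb. Mutant 1 thus stood apart with the longest peak coverage, and both mutants had less bin coverage than both controls. A call says that a place passed a caller's threshold and gives no level of the mark.

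PRC2 domains in mammals are known to centre on CpG-rich promoters, so the Dlx promoters that could be matched, those of Dlx1 and Dlx2, are shown. They are the 250 bases before the start of each gene, 5′ to 3′ on the gene's strand, from RefSeq (GRCm38.p6), with CpG dinucleotides in capitals. The table matched 2 of the 6 members.

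Dlx1: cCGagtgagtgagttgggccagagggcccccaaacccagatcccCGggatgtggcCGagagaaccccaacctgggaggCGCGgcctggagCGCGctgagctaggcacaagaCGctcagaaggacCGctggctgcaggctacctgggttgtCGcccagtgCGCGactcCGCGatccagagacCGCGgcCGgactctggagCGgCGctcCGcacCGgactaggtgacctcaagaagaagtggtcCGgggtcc
Dlx2: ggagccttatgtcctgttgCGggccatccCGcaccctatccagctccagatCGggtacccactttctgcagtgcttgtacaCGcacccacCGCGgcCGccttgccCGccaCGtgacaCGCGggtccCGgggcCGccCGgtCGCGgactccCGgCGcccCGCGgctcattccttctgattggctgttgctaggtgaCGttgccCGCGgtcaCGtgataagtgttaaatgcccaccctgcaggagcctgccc

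The Dlx1 stretch holds 22 CpG and is 68% G or C, and the Dlx2 stretch holds 24 CpG and is 66.4% G or C. The same stretch of the 32851 promoters in the table holds a median of 6 CpG. As many CpG as before Dlx1 were found in 14.8% of those promoters, and as many as before Dlx2 in 12.0%. CG was counted as the letters CG, which read the same on both strands. These are counts of letters, and they place no mark within the interval.

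The first question was whether the Dlx pairs are called for H3K27me3 in germ cells at all, and how far the calls reach. Each interval held broad calls that were present in all 4 libraries with both callers, and a domain is named here for the pair of its interval. The Dlx1 and Dlx2 domain was a single merged MACS2 region on chromosome 2 from 71361053 to 71392637, 31.6 kb wide. The Dlx5 and Dlx6 domain spanned 38.1 kb, on chromosome 6 from 6795919 to 6833979, and began before the interval. The Dlx3 and Dlx4 interval held a pair of separate domains, of 14.5 kb on chromosome 11 from 94978207 to 94992671 and of 17.7 kb from 94997083 to 95014767. Among 54748 merged regions of the genome, the Dlx5 and Dlx6 domain ranked 9 by width and the Dlx1 and Dlx2 domain ranked 23. The domains of Dlx3 and Dlx4 ranked 167 and 247. On chromosome 6 only 1 of 3019 merged regions was wider than that of Dlx5 and Dlx6. These ranks are of regions merged over the libraries. The Dlx5 and Dlx6 domain and the 14.5-kb domain were each a single peak in mutant 1 only. At Dlx5 and Dlx6 the widest peak was 19.7 kb in control 1, 20.4 kb in control 2 and 19.7 kb in mutant 2.

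**Figure D1:**
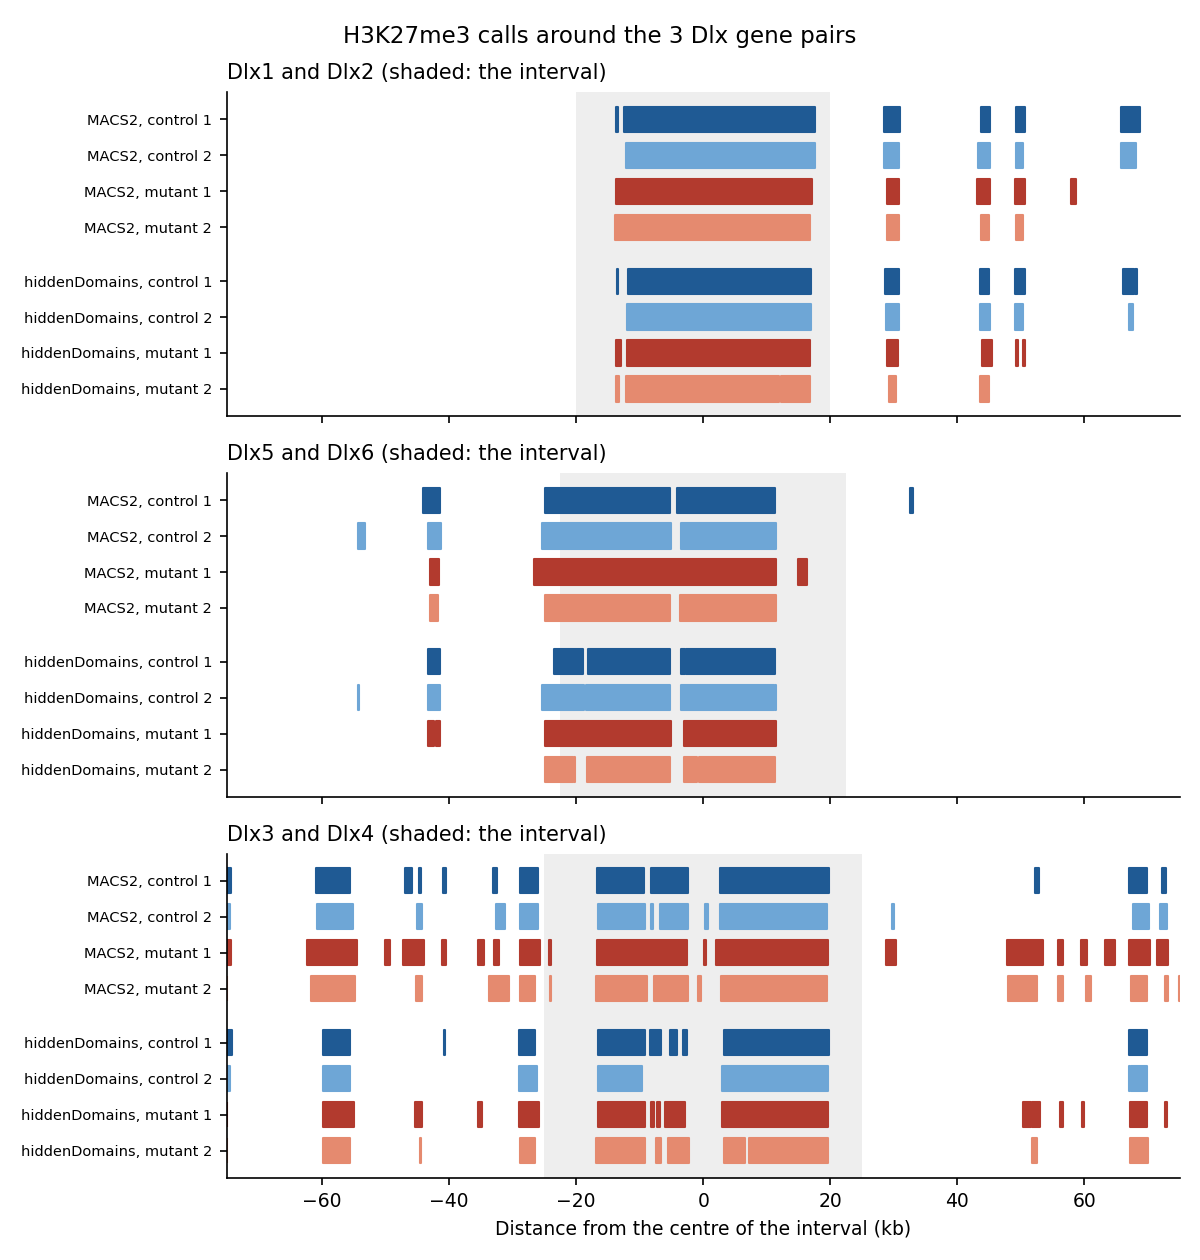
Calls of each library within 75 kb of the centre of each interval. Horizontal axis: distance from the centre in kb. Each row is 1 library under 1 caller, bars are called stretches, and the grey band is the interval. The broad domains stand in the same place in all 4 libraries, while the narrow calls outside them vary, mostly beside Dlx3 and Dlx4.

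The length called in each interval was then compared between genotypes. For Dlx1 and Dlx2, the peak-covered length was 30.3 kb in control 1, 29.7 kb in control 2, 30.8 kb in mutant 1 and 30.7 kb in mutant 2. Both mutants lay slightly above both controls, by a mean of 0.789 kb (two-sided exact permutation p = 0.333, the smallest that 2 libraries against 2 can give). The direction depended on scaling: with genome-wide coverage scaled to be equal, the difference was -0.770 kb with peaks and 4.14 kb with bins. Without scaling, both mutants lay above both controls in 22.1% of the 14380 windows of 50 kb tested across the genome with peaks. With bins this was 8.27% of the 11526 tested. The bin-covered length was 29.0 kb in each control, 29.6 kb in mutant 1 and 29.4 kb in mutant 2, which is the same order. The mean difference was 2.63% of the control length with peaks and 1.72% with bins.

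For Dlx5 and Dlx6, the peak-covered length was 32.8 kb in control 1, 32.5 kb in control 2, 35.4 kb in mutant 1 and 32.3 kb in mutant 2. Mutant 1 was the highest of the 4 libraries and mutant 2 the lowest, so the genotypes overlapped. The mean difference of 1.21 kb (two-sided exact permutation p = 1) became -0.344 kb without mutant 1 and -0.662 kb with scaled peaks. By bins the length was 31.0 kb in control 1, 31.8 kb in control 2, 32.0 kb in mutant 1 and 29.4 kb in mutant 2, with a mean difference of -0.70 kb. With scaled bins it was 3.07 kb, with both mutants above both controls (two-sided exact permutation p = 0.333). The extra length in mutant 1 came from a peak of 1.43 kb outside the domain, called in no other library, and from a stretch that separates 2 peaks in the others.

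For Dlx3 and Dlx4, the peak-covered length was 30.4 kb in control 1, 29.3 kb in control 2, 32.5 kb in mutant 1 and 30.9 kb in mutant 2. Both mutants again lay above both controls, by a mean of 1.85 kb or 6.19% (two-sided exact permutation p = 0.333), and by 0.188 kb with scaled peaks, where the genotypes overlapped (p = 1 by the same exact test). By bins the length was 27.4 kb in control 1, 23.6 kb in control 2, 28.0 kb in mutant 1 and 27.6 kb in mutant 2. The mutants again lay above the controls, by a mean of 2.3 kb or 9.02%, and by 5.60 kb with scaled bins. Control 2 was the low library, and control 1 lay within 0.6 kb of both mutants. All 4 broad domains were called in both mutants.

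**Figure D2:**
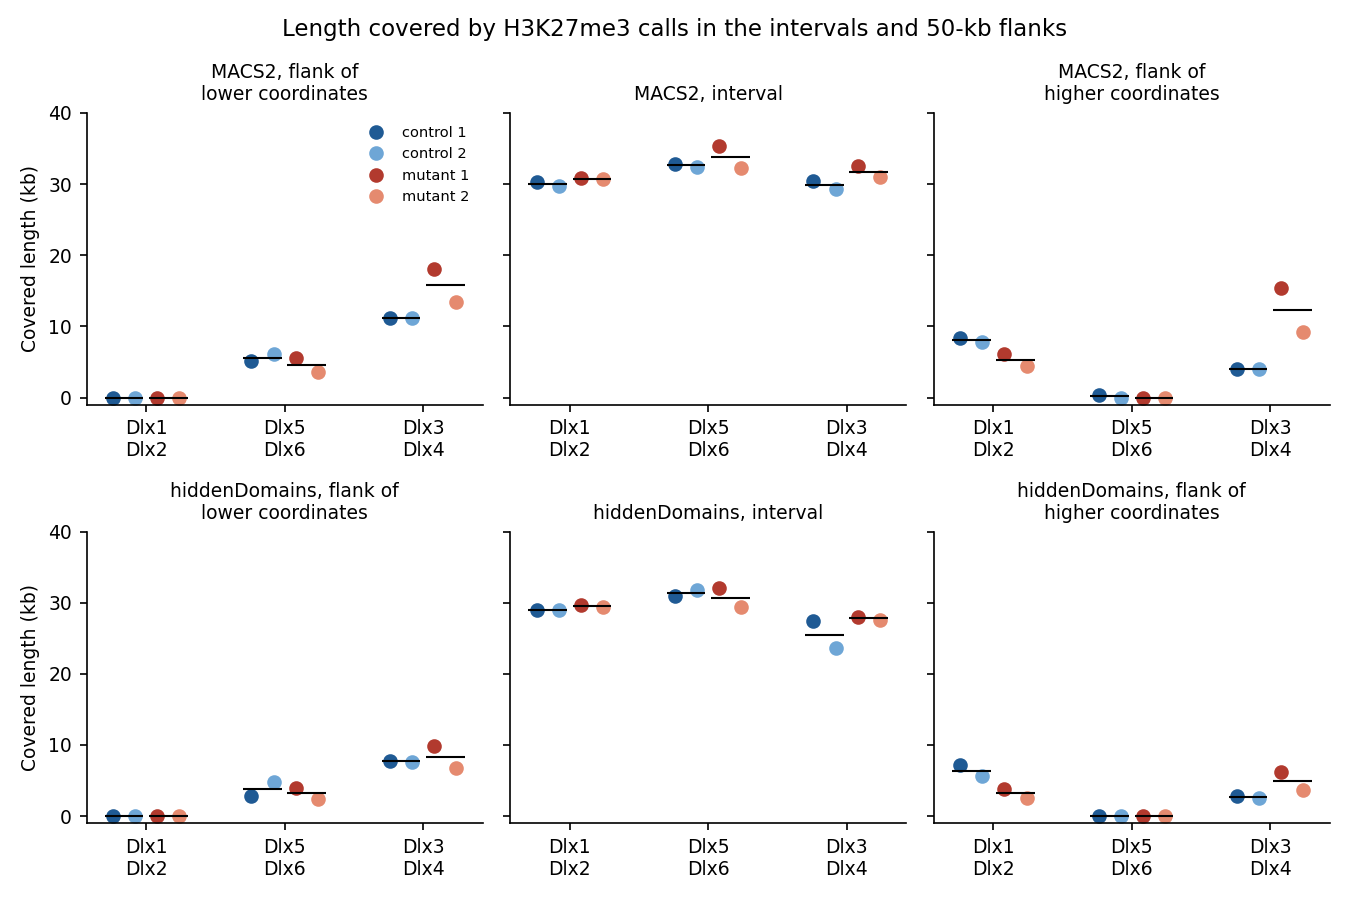
Covered length in kb (vertical axis) in each interval (middle panels) and in the 50 kb on either side, with MACS2 peaks above and hiddenDomains bins below. Each point is 1 library and each black line the mean of a genotype (n = 2). With peaks, points lie close together within the intervals, at 29.3 to 35.4 kb. Peaks spread more in both flanks of Dlx3 and Dlx4, at 11.2 to 18.1 kb below and 3.96 to 15.4 kb above. They also spread more in the upper flank of Dlx1 and Dlx2, at 4.37 to 8.39 kb. With bins, the Dlx3 and Dlx4 interval spreads more than its flanks, at 23.6 to 28.0 kb against 6.80 to 9.80 kb below and 2.6 to 6.2 kb above.

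The next question was whether the same bases were called. In the Dlx1 and Dlx2 interval, 28.8 of the 31.6 kb called by MACS2 in any library were called in all 4, or 91.3%. The share was 90.6% for Dlx5 and Dlx6 and 84.2% for Dlx3 and Dlx4. Over the whole genome it was 40.2%. With bins the shares were 94.7%, 88.9% and 76.0%, against 54.0% genome-wide. Bases called in both controls and neither mutant made up 0.536 kb of the 3 intervals together with peaks and 0.6 kb with bins. Bases called in both mutants and neither control made up 1.70 kb and 1.80 kb. As a share of called bases, the loss with bins was 0.649% in the intervals and 8.50% genome-wide, and the gain was 1.95% and 2.24%. With peaks the loss was 0.532% in the intervals and 5.18% genome-wide, and the gain was 1.69% and 4.94%. These shares describe the intervals and were not tested against the genome, since wide regions share more of their length than narrow ones.

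**Figure D3:**
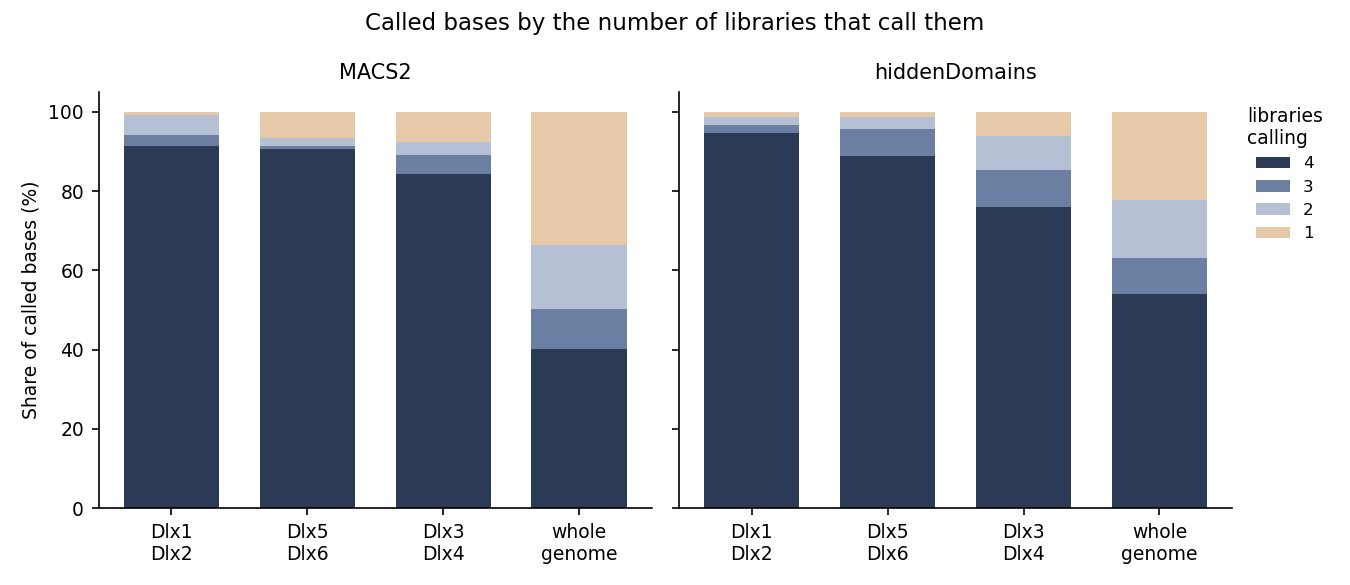
Called bases in each interval and in the whole genome, split by how many of the 4 libraries call them (vertical axis, % of bases called in any library), for MACS2 and hiddenDomains. Bases called in all 4 libraries make up 84.2% to 91.3% of the intervals with peaks, against 40.2% of the genome.

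Regions elsewhere were therefore taken from the same range of widths, but they were not matched to each domain. The 4 Dlx domains shared by all libraries had 91.3%, 90.6%, 80.1% and 95.0% of their merged width called in all 4. The 235 other regions of 14.5 to 37.2 kb had a median of 82.6%, with quartiles of 69.5% and 89.3%. The Dlx5 and Dlx6 domain, which ranked 9 by width, set the upper bound, so all of them were narrower than it. Most were also narrower than the Dlx1 and Dlx2 domain, which ranked 23. In 3 of the 4 domains the share lay above the upper quartile, and the exception was the domain of lower coordinates at Dlx3 and Dlx4. The Dlx domains were taken as called in all 4 libraries and the 235 regions were not, so the sets are unequal and no conclusion is drawn. Of the 8 merged regions in the intervals, 4 were called in all libraries, beside 36.4% of regions genome-wide. With bins 5 of 8 were, beside 43.4%. The other 4 were the peak of mutant 1 at Dlx5 and Dlx6, on chromosome 6 from 6837394 to 6838819, and narrow regions beside Dlx3 and Dlx4. These narrow regions, of 0.361 to 0.616 kb, lay on chromosome 11. That from 94994157 to 94994722 was called in mutant 2 alone, and that from 94995140 to 94995755 in control 2 and mutant 1. The narrowest region, from 94970696 to 94971056, was called in both mutants and in neither control, as were 5.97% of merged regions genome-wide.

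With peaks, the edges of the domains stood in nearly the same place in every library. At Dlx5 and Dlx6 the upper edge varied over 108 bp between the 4 libraries, and the lower edge over 1.69 kb. For the domain of lower coordinates at Dlx3 and Dlx4 the spread was 178 and 156 bp at the lower and upper edges, and for its neighbour it was 654 and 233 bp. Bins did not share that upper edge. The gap in bins between these neighbours began at 94985401 in control 2, but at 94992401 in control 1, 94992201 in mutant 1 and 94992801 in mutant 2. The Dlx1 and Dlx2 domain had the least fixed lower edge, with a spread of 1.87 kb. In control 1 that edge was a separate peak of 236 bp. The broad peak began at 71362591 in control 1, 71362925 in control 2, 71361239 in mutant 1 and 71361053 in mutant 2, before both controls in both mutants. In this interval, peaks of both mutants alone covered 1.12 kb and those of both controls alone 0.536 kb. The upper edge of the domain lay at 71392637 in control 1, 71392606 in control 2, 71392070 in mutant 1 and 71391763 in mutant 2. Both mutants ended short of both controls there, by up to 0.874 kb. With bins that end lay 17.0 kb from the centre of the interval in both controls and 16.8 kb in both mutants. How common such orders of edges are genome-wide was not counted. At the lower edge of the domain hiddenDomains gave a separate short run of bins in control 1 and both mutants, set off by 1.6, 1.0 and 1.0 kb, and none in control 2. The long run of bins began at -11.8 kb from the centre in control 1, -12.0 kb in control 2 and in mutant 1, and -12.2 kb in mutant 2.

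Gaps within the domains recurred too. At Dlx5 and Dlx6 a gap of 1.08 and 1.52 kb split the peaks of the controls, and one of 1.66 kb those of mutant 2, while mutant 1 had a single peak of 38.0 kb. The bins left a gap at the same place in all 4 libraries, of 1.8 kb in each control, 2.0 kb in mutant 1 and 2.2 kb in mutant 2. The gap was therefore present in mutant 1 with one caller and bridged with the other. Between the Dlx3 and Dlx4 domains, bins left a gap of 5.8 kb in control 1, 5.8 kb in mutant 1 and 5.4 kb in mutant 2. In control 2 the gap was 12.6 kb, since the bins of the part next to it, which the other libraries called in pieces, were not called. MACS2 put peaks on that part in all 4 libraries.

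The overlap of the callers differed between the intervals. Of the peak-covered bases in the 3 intervals, 93.2% (control 1), 92.2% (control 2), 90.7% (mutant 1) and 91.7% (mutant 2) also lay in bins. Genome-wide these shares, in the same order, were 76.1%, 74.8%, 60.1% and 67.0%. The Dlx3 and Dlx4 interval had the lowest shares of the 3 in every library, at 89.3%, 80.2%, 86.2% and 88.6%, and that of control 2 was nearest to its genome-wide share. Bins carry a display score of up to 1000, whose meaning no source used here gives. In the Dlx1 and Dlx2 interval, 97.9% of the bins of either control had that highest score, as did 98.6% of those of mutant 1 and 100% of those of mutant 2. In the Dlx5 and Dlx6 interval the shares were 99.4% for control 1, 93.1% for control 2, 100% for mutant 1 and 96.6% for mutant 2. In the Dlx3 and Dlx4 interval they were 97.1%, 99.2%, 97.1% and 97.8% in that order. The genome-wide share was between 91.0% and 93.1%.

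Around the domains the pairs differed from one another. Comparisons of genotypes in the 50-kb flanks were not among those planned. In the 50 kb below the Dlx1 and Dlx2 interval no call was made in any library. In the 50 kb above it, peak coverage was 8.39 kb in control 1, 7.78 kb in control 2, 6.08 kb in mutant 1 and 4.37 kb in mutant 2. Both mutants lay below both controls, by a mean of 2.85 kb (two-sided exact permutation p = 0.333), and scaling kept that order. Without scaling, windows of 50 kb with both mutants below both controls made up 34.1% of those tested with peaks and 44.7% with bins, so such an order is common. Bin coverage of that flank was 7.2 kb in control 1, 5.6 kb in control 2, 3.8 kb in mutant 1 and 2.6 kb in mutant 2. The flank held a region, chromosome 2 from 71440719 to 71443760, where control 1 had a peak of 3.04 kb and control 2 one of 2.32 kb. Bins covered 2.0 kb of it in control 1 and 0.6 kb in control 2, and neither caller called it in a mutant. Merged MACS2 regions called in both controls and neither mutant made up 4.9% of those genome-wide. In the GRCm38 gene table, Metap1d precedes Dlx1 and Itga6 is the next coding gene after Dlx2, but no region was assigned to a gene.

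The flanks of Dlx5 and Dlx6 were sparse. Below the interval, peak coverage was 5.09 kb in control 1, 6.15 kb in control 2, 5.59 kb in mutant 1 and 3.64 kb in mutant 2, part of which was the end of the domain itself. Above it, a single peak of 0.376 kb in control 1 was the only call by MACS2, and there was none by hiddenDomains.

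The Dlx3 and Dlx4 interval lay in a stretch with many narrow calls. Above the interval, peak coverage was 4.06 kb in control 1, 3.96 kb in control 2, 15.4 kb in mutant 1 and 9.16 kb in mutant 2. The mean difference of 8.27 kb (two-sided exact permutation p = 0.333) was 5.15 kb without mutant 1 and 7.55 kb with scaled peaks. Of 8 merged regions there, 2 were called in both mutants and neither control, a pattern of 5.97% of merged regions genome-wide. Another, chromosome 11 from 95042882 to 95048449, held 5.57 kb of peaks in mutant 1, 4.68 kb in mutant 2, 0.571 kb in control 1 and none in control 2. Bin coverage of this flank was 2.8 kb in control 1, 2.6 kb in control 2, 6.2 kb in mutant 1 and 3.6 kb in mutant 2, so both mutants were again above both controls. Below the interval, peak coverage was 11.2 kb in each control, 18.1 kb in mutant 1 and 13.5 kb in mutant 2. The mean difference of 4.58 kb was 3.66 kb with scaled peaks and 2.28 kb without mutant 1. The bins of the genotypes overlapped there, with 7.80 kb in control 1, 7.60 kb in control 2, 9.80 kb in mutant 1 and 6.80 kb in mutant 2. Mutant 1, the library with the longest peak coverage genome-wide, had the most in both flanks. With peak coverage scaled to be equal, both mutants still lay above both controls in both flanks (two-sided exact permutation p = 0.333 for each). Genome-wide, windows in that order made up 22.1% with peaks and 8.27% with bins, both without scaling, and the share after scaling was not counted.

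Windows of 50 kb placed the pairs within one fit over the genome. No window of 11526 passed with hiddenDomains bins (limma, Benjamini-Hochberg adjusted p under 0.05; 0% of windows in either direction), and at an unadjusted limma p under 0.05 there were 328 higher and 2770 lower in the mutants. Over all windows, the log2 difference had a median of -0.13, and scaling the totals to be equal moved it to 0.00040. Differences are of log2(kb covered + 1). The Dlx1 and Dlx2 window, chromosome 2 from 71350001 to 71400000, had the bin-covered lengths given above for its interval and a difference of 0.024 (SE 0.016, limma adjusted p = 0.416), which was 0.19 with scaled bins and -0.044 with scaled peaks. Its mean coverage was at or above that of 99.8% of the windows. The main Dlx5 and Dlx6 window, chromosome 6 from 6800001 to 6850000, had a difference of -0.033 (SE 0.054, limma adjusted p = 0.718), which was 0.14 after scaling and 0.050 with peaks. The window before it, which shares 1 bp with the interval, had -0.19 (SE 0.35, limma adjusted p = 0.756).

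The Dlx3 and Dlx4 interval fell across a window border. On chromosome 11 from 94950001 to 95000000, bin coverage was 15.4 kb in control 1, 11.8 kb in control 2, 18.0 kb in mutant 1 and 16.2 kb in mutant 2. The difference was 0.32 (SE 0.16, limma adjusted p = 0.306), but 0.14 without control 2 and 0.50 without control 1. From 95000001 to 95050000 it was 0.10 (SE 0.082, limma adjusted p = 0.473), but 0.0092 without mutant 1 and 0.20 without mutant 2. With scaled bins the differences were 0.48 (limma unadjusted p = 0.0119, adjusted p = 0.113) and 0.27 (limma unadjusted p = 0.0143, adjusted p = 0.124). Both windows reach past the interval, with which they share 30001 and 20000 bp. The first 20 kb of the second window is the part inside the interval. There, bins covered 14.8 kb in control 1, 14.6 kb in control 2, 14.6 kb in mutant 1 and 14.0 kb in mutant 2, a difference of -0.037 (limma adjusted p = 0.453). With peaks these windows were higher in both mutants, by 0.25 (SE 0.066, limma unadjusted p = 0.0226, adjusted p = 0.188) and 0.42 (SE 0.091, limma unadjusted p = 0.0117, adjusted p = 0.159). The second window holds the region from 95042882 to 95048449, outside the interval. Peaks covered 0.571 kb of it in control 1, none in control 2, 5.57 kb in mutant 1 and 4.68 kb in mutant 2. Inside the interval, the domain in that window ended at 95014767 in control 1, 95014534 in control 2, 95014650 in mutant 1 and 95014543 in mutant 2. For the first window, peaks inside and outside the interval were not separated. At an unadjusted limma p under 0.05, 9.15% of the 14380 windows tested with peaks were higher and 10.9% lower, and 0 passed adjustment. The difference between these windows and those of the other pairs was not tested.

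**Figure D4:**
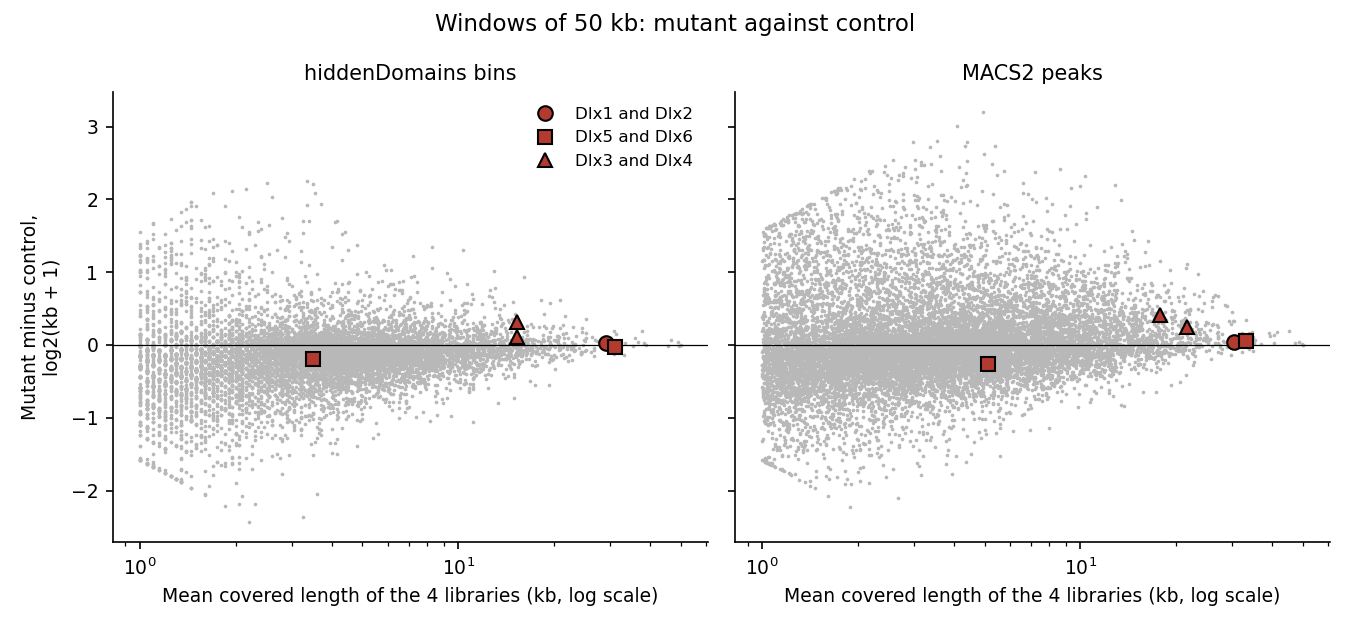
Windows of 50 kb by mean covered length (horizontal axis, kb, log scale) and by the mutant minus control difference of log2(kb + 1) (vertical axis), for hiddenDomains bins and MACS2 peaks. Grey points are all windows tested and red marks the 5 windows that overlap a Dlx interval. The windows of Dlx1 and Dlx2 and the main one of Dlx5 and Dlx6 sit near 0 at the densely covered end, and those of Dlx3 and Dlx4 lie above 0, by 0.10 to 0.42. Both Dlx3 and Dlx4 windows reach past the interval. Bins in the part of the second window inside the interval differ by -0.037. Its peaks include a region outside the interval, from 95042882 to 95048449, with 0.571 kb in control 1, none in control 2, 5.57 kb in mutant 1 and 4.68 kb in mutant 2.

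Other regions of the genome had nearly the same 4 covered lengths as the widest Dlx domains. Likeness was the Euclidean distance between log2 covered lengths over the 4 libraries, among 19919 regions called in all of them. The nearest to the Dlx1 and Dlx2 domain lay on chromosome 14 from 122859058 to 122891624, with 30.6, 31.2, 31.1 and 30.8 kb in controls 1 and 2 and mutants 1 and 2 (distance 0.0737). The nearest to that of Dlx5 and Dlx6 lay on chromosome 3 from 128895065 to 128931767, with 34.9, 34.5, 36.6 and 35.6 kb in that order (distance 0.0765). For the wider Dlx3 and Dlx4 domain it lay on chromosome 14 from 22800106 to 22817047, with 16.4, 16.9, 16.8 and 16.8 kb (distance 0.0886). Their widths were 32.6, 36.7 and 16.9 kb, and that they are broad follows from the choice by covered length.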

How the data were processed

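H3K27me3 calls of 2 control and 2 Ezh2 mutant libraries were analysed, and the 2 input samples were not used. The authors deposited, per library, MACS2 peaks (per the file headers) without height or p-value, and hiddenDomains bins of 200 bp (per the file names and headers) with a display score. The submitters' processing notes name the mm9 build, Bowtie, SAMtools and bedtools. No source used here gives versions, thresholds, control tracks or depth, so no length was corrected for depth and a deeper library can give more and wider calls. Touching calls were joined and lengths taken in bp (Python 3.11.15, NumPy 2.4.6). Genotypes were compared over each interval by an exact permutation test (two-sided, SciPy 1.17.1), and over 50-kb windows averaging 1 kb or more by limma 3.58.1 (trend) on log2(kb + 1), adjusted over all windows. The same exact test of the 50-kb flanks was not planned beforehand. Every merged MACS2 region and every 50-kb window overlapping an interval is named. Interval code and the window fit were tested on simulated data. The simulated windows varied less between libraries than the real ones, so that test does not show what the fit can detect here. The members, lists and tests were chosen with earlier results of these data known. Alternatives changed caller, scaling, bounds, joining distance, window size, pseudocount, minimum, overlap, score, pairing and each library in turn. Genes tied to Dlx function elsewhere were not analysed, for want of mm9 positions.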

Additional observations from a re-analysis of the deposited data

How the results depend on the processing

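Depth is unknown, and with 2 libraries a genotype the exact tests cannot go below 0.333, so an unchanged p says nothing about stability. Differences are mutant minus control. Scaling to equal peak coverage reversed the Dlx1 and Dlx2 interval to -0.770 kb and the Dlx5 and Dlx6 interval to -0.662 kb, and bins reversed the latter to -0.70 kb. Leaving out each library gave 0.489 to 1.09 kb for Dlx1 and Dlx2, -0.344 (without mutant 1) to 2.77 kb for Dlx5 and Dlx6, and 1.08 to 2.61 kb for Dlx3 and Dlx4. With bins scaled to equal coverage, an alternative chosen after seeing the data, the 3 differences were 4.14, 3.07 and 5.60 kb. The number of Dlx regions called in all libraries was 4, or 5 with bins. Windows passing limma were 0, but 56 higher and 856 lower without the coverage minimum, 128 and 244 with scaled bins, and 325 and 148 with scaled peaks, also chosen after seeing the data. They were 0 in both directions for the other alternatives. No 50-kb Dlx window passed under any alternative (limma adjusted p 0.113 to 1), and no 20-kb or 100-kb window of the Dlx intervals did (lowest limma adjusted p 0.0960, on chromosome 2 from 71360001, at a difference of 0.063). Among them, the Dlx1 and Dlx2 window reversed to -0.044 with scaled peaks. The main Dlx5 and Dlx6 window reversed to 0.050 with peaks and 0.14 with scaled bins, and ranged from -0.092 (without mutant 1) to 0.027 (without mutant 2) with each library left out. The window before it ranged from -0.49 (without control 1) to 0.12 (without control 2), and was 0.091 without mutant 2. The Dlx3 and Dlx4 windows ranged from 0.14 (without control 2) to 0.50 (without control 1) and from 0.0092 (without mutant 1) to 0.20 (without mutant 2). The cause was not tested. Replicate numbers are shared between genotypes only as numbers: deviations of same-numbered libraries correlated at 0.044 with bins and 0.041 with peaks. With the replicate block in limma 0 windows passed. Pairing cannot alter a mean difference, so the interval values of 0.789, 1.21 and 1.85 kb say nothing about stability here. With a library left out, the lone library of its genotype is assumed to vary like the other pair. Single windows of 20 and 100 kb were not matched to those of 50 kb.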
